A study of Homo sapiens with 6 samples.

Results

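The genes of de novo pyrimidine and deoxynucleotide synthesis were examined in HaCaT keratinocytes with and without FGFR2, a receptor for fibroblast growth factors. They are the 10 genes *CAD*, *DHODH*, *UMPS*, *CTPS1*, *CTPS2*, *RRM1*, *RRM2*, *TYMS*, *DUT* and *DTYMK*, out of 21475 genes listed in each library. They were chosen by their place in the pathway, with earlier results of these data known, and each symbol matched exactly 1 Ensembl gene. HaCaT is a human keratinocyte line that became immortal spontaneously. RNA came from 3 WT and 3 *FGFR2* KO lines, 1 library per line. The study describes culture of HaCaT cells in medium with serum. The labels give no medium and name no added growth factor or inflammatory mediator. The KO lines were made with Cas9 and 1 sgRNA against a coding exon of *FGFR2*, sorted as single cells and expanded, so that each KO line is 1 clone. The study calls its sequenced HaCaT lines clonally expanded but also counts the population before cloning among its WT lines, and the labels do not name the line behind each library. All p-values below therefore measure the spread between lines, part of which is spread between clones of one cell line.

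Pyrimidine nucleotides are made from small precursors in a short chain of reactions. CAD, a single protein with 3 enzymatic activities, makes dihydroorotate from bicarbonate, glutamine and aspartate, DHODH in the inner mitochondrial membrane oxidizes it to orotate, and UMPS turns orotate into UMP. The CTP synthases CTPS1 and CTPS2 aminate UTP to CTP. Ribonucleotide reductase, made of the large subunit RRM1 and the small subunit RRM2, converts ribonucleotides to deoxyribonucleotides, and RRM2 is degraded after S phase. DUT hydrolyzes dUTP to dUMP, TYMS methylates dUMP to dTMP, and DTYMK phosphorylates dTMP on the way to dTTP. Dividing epidermal keratinocytes need this supply for DNA and RNA, and promoters of several of these genes are known targets of E2F factors or MYC.

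All 10 genes had higher levels in each of the 3 KO libraries than in any of the 3 WT libraries. The largest differences were in *CAD* and *CTPS1*, at about the same ratio of the KO to the WT mean (3.26 and 3.27), and the smallest in *CTPS2* (1.28). Of all 12241 tested genes, 18.3% lay above WT in this way, and 5.77% lay below it. None of the 10 passed the adjusted threshold, nor did any tested gene (0.0%), with the limma test described below. The members largely shared the libraries at the ends of the range. KO replicate 3 had the highest level of 10 of the 10 genes, WT replicate 2 the lowest of 8, and WT replicate 1 the lowest of the other 2. The order in between differed more: among KO lines, replicate 2 was lowest for 7 members and replicate 1 for 3.

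Sequence just before a RefSeq transcription start is shown for 4 members, as background only. They are the members with an E2F word, an E-box, or 3 or more CCAAT boxes in a window. Other members with a CCAAT box are named below without sequence. The windows are those of RefSeq on GRCh38.p14, from 250 bases before to 50 bases after a start, and 16 windows matched the 10 genes. On either strand, the E2F words TTTCCCGC, TTTGGCGC, TTTCGCGC and TTTGCCGC, the E-box CACGTG bound by MYC and related factors, and the CCAAT box were searched. The words are in capitals, also where they read as the reverse complement (in *DHODH* the E-box alone), and each run ends at the base before the RefSeq start. For *TYMS* that start is the first base of the gene coordinates given below. For *DUT*, *RRM2* and *DHODH* it lies downstream of the first base of those coordinates. The runs of *DUT* and *RRM2*, and most of that of *DHODH*, are therefore inside the gene as annotated by GENCODE.
*TYMS*, chr18:657593-657652, plus strand: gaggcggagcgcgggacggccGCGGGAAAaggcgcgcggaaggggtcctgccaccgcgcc
*DUT*, chr15:48332137-48332196, plus strand: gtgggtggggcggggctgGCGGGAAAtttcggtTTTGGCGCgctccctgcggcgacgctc
*RRM2*, chr2:10122599-10122738, plus strand: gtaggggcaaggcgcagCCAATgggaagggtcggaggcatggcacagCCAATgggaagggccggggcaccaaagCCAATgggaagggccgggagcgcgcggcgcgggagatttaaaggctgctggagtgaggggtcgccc
*DHODH*, chr16:72008564-72008743, plus strand: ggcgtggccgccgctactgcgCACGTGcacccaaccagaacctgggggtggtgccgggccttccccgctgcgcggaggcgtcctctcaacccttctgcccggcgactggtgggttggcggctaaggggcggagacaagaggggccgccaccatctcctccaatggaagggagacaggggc
An E2F word stood in 2 of the 16 member windows, those of *TYMS* and *DUT*, and in 3.31% of all 35116 windows. The E-box stood in 1 of the 16 member windows, that of *DHODH*, and in 7.26% of all windows. The CCAAT box stood in 6 of the 16 member windows and in 34.6% of all windows. Those 6 belong to 5 members (*RRM2*, *CAD*, *DTYMK*, *RRM1* and *DHODH*). A window with 3 copies or more was 1 of the 16, in *RRM2*, and 3.26% of all windows. The *CTPS1*, *CTPS2* and *UMPS* windows held none of these words, which says nothing about other stretches of those genes. A match is a description of letters and not a measured site.

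Where 3 values are given for WT or KO lines, they are those of replicates 1, 2 and 3 in this order. The expression values are FPKM, fragments scaled to gene length and to the mapped total of the library, so that levels of different genes can be set beside each other within a library. From the steps between low values, depth was estimated as about 67600000 to 81000000 fragments in the WT and 71300000 to 88000000 in the KO libraries, although only 72.2% of those values came out as whole fragments. At that depth 1 fragment on a transcript of 1 kb is 0.0114 to 0.0148 FPKM, far below the lowest value of a member, 2.08 FPKM for *DHODH* in WT replicate 2. *FGFR2* itself was at 15.02 to 39.7 FPKM in WT and 2.26 to 4.31 FPKM in KO libraries. Its difference, -2.73 on the log2 scale with a standard error of 0.36, was not called either (adjusted p = 0.261 by limma). The 8 keratinocyte markers (*KRT5*, *KRT14*, *TP63* and others) added up to 10858 to 17466 FPKM in WT and 14377 to 26462 FPKM in KO libraries. The 5 melanocyte markers added up to at most 2.44 FPKM, with *MLANA*, *TYR*, *DCT* and *TYRP1* at or near 0. The 7 fibroblast markers added up to 7.99 to 33.2 FPKM in WT and 6.92 to 12.6 FPKM in KO libraries, most of it *COL1A1*, with *DCN* at 15.5 FPKM in WT replicate 2 and *LUM* and *DCN* at 1.85 and 1.66 FPKM in KO replicate 1. The 6 leukocyte markers added up to 12.5 to 22.3 FPKM in WT and 5.27 to 11.7 FPKM in KO libraries, mostly *CD68*, with *PTPRC* and *CD3E* at or near 0. Mitochondrial genes held 21.5 to 27.6% of the summed FPKM in WT against 15.8%, 23.7% and 11.9% in KO lines, and the FPKM of all other genes are scaled to a total that includes them.

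Within a library the members spanned about the same order of levels, and RNA of the reductase was the most abundant. *RRM1* was the highest and *DHODH* the lowest member in 6 of 6 libraries. In WT lines *RRM1* was at 165 ± 24.2 FPKM and *DHODH* at 2.86 ± 0.74 FPKM (SD, n = 3). Several neighbors in the WT order did not differ beyond their spread. *RRM2* and *DUT* were at 65.8 ± 31.5 and 59.2 ± 14.4 FPKM, *TYMS* and *DTYMK* at 32.9 ± 6.95 and 32.5 ± 4.13 FPKM, *CAD* and *UMPS* at 14.6 ± 3.56 and 14.6 ± 1.91 FPKM, and *CTPS1* and *CTPS2* at 7.27 ± 3.11 and 7.27 ± 1.04 FPKM (SD, n = 3 for each). In KO lines the last pairs stood apart, with *CAD* above *UMPS* and *CTPS1* above *CTPS2* in each of the 3 libraries. Added up, the members made up 0.0556 to 0.0840% of the FPKM of nuclear genes in WT libraries, against 0.0990%, 0.0989% and 0.144% in KO lines.

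**Figure D1:**
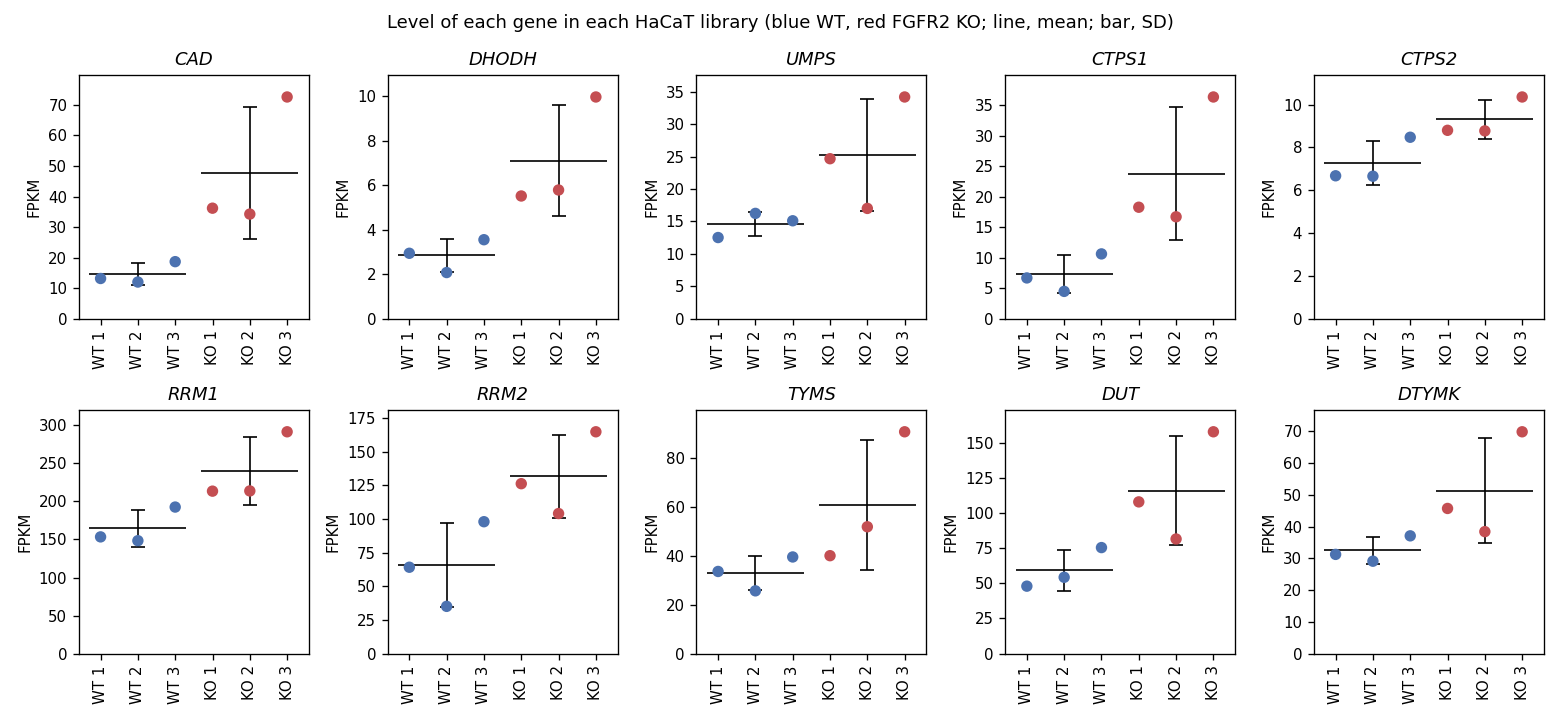
FPKM (y axis, linear from 0) of the 10 genes in the 3 WT (blue) and 3 *FGFR2* KO (red) libraries (x axis), with the mean (line) and SD (bar) of each group. In every panel the 3 red points lie above the 3 blue points, and KO replicate 3 is the highest.

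RNA of the 3 genes for the route from bicarbonate and glutamine to UMP was higher in KO lines, most of all that of *CAD*. *CAD* (ENSG00000084774, GRCh38 chromosome 2 from 27217369 to 27243943) had 13.2, 12.02 and 18.7 FPKM in WT against 36.2, 34.2 and 72.6 FPKM in KO lines. The lowest KO value was 1.83 times the highest WT value, the widest gap of the members by this ratio. *DHODH* (ENSG00000102967, chromosome 16 from 72008588 to 72027664), the mitochondrial step, had 2.94, 2.08 and 3.55 FPKM in WT against 5.52, 5.79 and 9.97 FPKM in KO lines. The groups did not overlap, and the lowest KO value was 1.55 times the highest WT value. *UMPS* (ENSG00000114491, chromosome 3 from 124730433 to 124749273), which holds the last activities of the route, had 12.5, 16.2 and 15.1 FPKM in WT against 24.7, 17.0 and 34.2 FPKM in KO lines. Here KO replicate 2 lay just above WT replicate 2, at 1.05 times its value.

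On the log2(FPKM + 0.5) scale, the log2 fold change of KO over WT was 1.61 for *CAD* (standard error 0.31), 1.15 for *DHODH* (standard error 0.28) and 0.72 for *UMPS* (standard error 0.25). Without KO replicate 3 that of *UMPS* was 0.48. The adjusted p was 0.261 for *CAD*, *DHODH* and *UMPS* alike (limma over 12241 tested genes, Benjamini-Hochberg adjustment). For each member a two-sided exact permutation test of the log2 values gave p = 0.1, the smallest that 3 libraries against 3 can give. Among the log2 fold changes of all tested genes, that of *CAD* was at percentile 99.8, that of *DHODH* at 98.9 and that of *UMPS* at 94.2.

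The CTP synthases, close paralogs that catalyze the same reaction, differed in how far apart the groups stood. *CTPS1* (ENSG00000171793, chromosome 1 from 40979300 to 41012565) had 6.69, 4.49 and 10.6 FPKM in WT against 18.3, 16.7 and 36.3 FPKM in KO lines. *CTPS2* (ENSG00000047230, chromosome X from 16587999 to 16712936) had 6.68, 6.66 and 8.48 FPKM in WT against 8.80, 8.77 and 10.4 FPKM in KO lines. The *CTPS1* groups were well apart, while the lowest *CTPS2* value in KO was only 1.03 times the highest in WT. The log2 fold change was 1.63 for *CTPS1* (standard error 0.37, adjusted p = 0.261 by limma) and 0.34 for *CTPS2* (standard error 0.16, adjusted p = 0.332 by limma). The 95% interval for *CTPS2* ran from -0.04 to 0.72, which includes 0. Because a ratio within a library does not depend on how libraries are scaled, the paralogs were also compared in that way. The ratio of *CTPS1* to *CTPS2* was 1.002, 0.67 and 1.25 in WT against 2.08, 1.90 and 3.51 in KO lines. It was higher in each KO than in any WT library, by 1.34 on the log2 scale (two-sided exact permutation test, p = 0.1, adjusted p = 0.4 over the 4 ratios tested). Leaving out single libraries kept this difference between 1.07 and 1.55. No 31-base word of the *CTPS1* MANE transcript and 0.739% of those of *CTPS2* occurred in transcripts of another gene, none of the sharing genes being the other synthase.

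Both subunits of ribonucleotide reductase were higher in KO lines, and the WT lines were widely spread in *RRM2*. *RRM1* (ENSG00000167325, chromosome 11 from 4094707 to 4138932), which binds the substrates, had 153, 148 and 193 FPKM in WT against 213, 214 and 292 FPKM in KO lines. *RRM2* (ENSG00000171848, chromosome 2 from 10120698 to 10211725), which carries the tyrosyl radical, had 64.2, 35.1 and 98.0 FPKM in WT against 126, 104 and 165 FPKM in KO lines. WT replicate 3 came within 6.07 FPKM of the lowest KO library for *RRM2*. The log2 fold change was 0.53 for *RRM1* (standard error 0.18) and 1.09 for *RRM2* (standard error 0.36), with an adjusted p of 0.261 for both by limma. Without WT replicate 2, that of *RRM2* was 0.70. The ratio of *RRM2* to *RRM1* was 0.42, 0.24 and 0.51 in WT against 0.59, 0.49 and 0.57 in KO lines. These ratios overlapped between the groups (exact permutation p = 0.2, adjusted p = 0.4 over 4 ratios).

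*RRM2B*, the p53-induced alternative to RRM2 that also serves cells outside S phase, had 4.08, 5.57 and 3.21 FPKM in WT against 4.73, 4.95 and 7.18 FPKM in KO lines. Its groups overlapped, and its log2 fold change was 0.36 (standard error 0.25, adjusted p = 0.467 by limma). The ratio of *RRM2* to *RRM2B* was 15.7, 6.30 and 30.6 in WT against 26.7, 21.0 and 22.9 in KO lines. The WT values of this ratio enclosed all KO values (exact permutation p = 0.4, adjusted p = 0.533 over 4 ratios).

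The 3 genes that supply dTTP were also higher in each KO than in any WT library, and the lowest KO value was 1.08 times the highest WT value for *DUT*. *DUT* (ENSG00000128951, chromosome 15 from 48331011 to 48343373), whose product removes dUTP and makes dUMP, had 48.0, 54.3 and 75.4 FPKM in WT against 108, 81.5 and 158 FPKM in KO lines. *TYMS* (ENSG00000176890, chromosome 18 from 657653 to 673578), the thymidylate synthase and target of fluoropyrimidine drugs, had 33.6, 25.7 and 39.5 FPKM in WT against 40.0, 51.9 and 90.7 FPKM in KO lines. For *TYMS*, KO replicate 1 was only 1.01 times WT replicate 3. *DTYMK* (ENSG00000168393, chromosome 2 from 241675747 to 241686944), the thymidylate kinase, had 31.2, 29.1 and 37.1 FPKM in WT against 45.7, 38.4 and 69.8 FPKM in KO lines. Its lowest KO value was 1.04 times the highest WT value. The log2 fold change was 0.93 for *DUT* (standard error 0.27, adjusted p = 0.261 by limma), 0.81 for *TYMS* (standard error 0.31, adjusted p = 0.269) and 0.61 for *DTYMK* (standard error 0.23, adjusted p = 0.268). Without KO replicate 3 it was 0.48 for *TYMS* and 0.37 for *DTYMK*. *TYMS* and *DUT* did not keep a fixed ratio: it was 0.70, 0.47 and 0.52 in WT against 0.37, 0.64 and 0.57 in KO lines (exact permutation p = 0.7, adjusted p = 0.7 over 4 ratios). KO replicate 1 had the lowest *TYMS* for its *DUT* of the 6 libraries.

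Some members share sequence with other transcripts, which bears on how pseudoalignment assigns their reads. Of the 1583 words of 31 bases in the *TYMS* MANE transcript, 62.1% also occur, on either strand, in GENCODE release 44 transcripts of other genes, most of them (883) in *ENOSF1*, which overlaps *TYMS* in antisense. The libraries were stranded, but whether the quantification used strand is not given in the sources used here, so the *TYMS* level is uncertain. *ENOSF1* had 4.53, 5.83 and 4.37 FPKM in WT against 6.003, 5.34 and 7.79 FPKM in KO lines, all well below *TYMS*. For *DUT* 18.3% of words were shared, mainly with its antisense RNA *DUT-AS1*, for *RRM2* 14.3%, led by the pseudogene *RRM2P3*, and for *DHODH* 12.5%, spread over many genes. The share was at most 2.21% for each of the other 6 members.

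The test behind the adjusted p-values was limma's moderated test on log2(FPKM + 0.5) for the 12241 genes whose mean over the libraries reached 0.5 FPKM, a filter that all 10 members passed. A call required an adjusted p up to 0.05 and a log2 fold change of 0.5 or more in either direction. With the p left unadjusted, 9 of the 10 members were higher in KO lines, all but *CTPS2*, and 0 were lower. Of all tested genes 10.2% were past this unadjusted threshold in the higher direction and 2.33% in the lower. Without KO replicate 3 it was passed by 4 members and in the higher direction by 4.36% of all genes, and without WT replicate 1 by 5 members and 6.25% of all genes. The median log2 fold change was 0.87 over the 10 members and 0.09 over all tested genes. Without KO replicate 3 the member median was 0.59. In another fit limma weighted each library by how closely it followed its group mean across genes, not by a measured quality. With these weights 8 members were called at the adjusted threshold, all but *CTPS2* and *TYMS*, where 9.48% of tested genes were called in that direction. In that fit WT replicate 1 carried 89.7% of the weight of the WT group.

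Whether the closest WT and KO libraries overlapped changed with the scaling. Median-of-ratios scaling brought the median of all genes from 0.09 to 0.00 and that of the members to 0.78. With it 7 of the 10 members were higher in every KO than in every WT library, against 12.4% of all genes, and *CTPS2*, *TYMS* and *DTYMK* overlapped. At the unadjusted threshold 6 members were higher with this scaling, where 6.68% of all genes were higher and 3.99% lower. With this scaling 10.6% of all genes were lower in every KO than in every WT library. With the replicate number as a block, 10.9% of all genes were higher and 3.48% lower at the unadjusted threshold. Scaling to the sum of nuclear genes, which takes out the mitochondrial share, left 8 members apart, against 15.5% of all genes, and *CTPS2* and *TYMS* overlapped. All 190 log2 fold changes of the 10 members under the 19 alternatives were above 0. For many of these the sign could not change. Filters, empirical Bayes steps and the replicate block do not move a log2 fold change here. Groups that do not overlap cannot be reversed by another pseudocount or by leaving out a library. The genes *CAD*, *RRM2* and *DTYMK* lie on chromosome 2, whose genes as a whole lay 0.13, 0.05 and 0.17 (median, log2) above the WT mean in KO replicates 1, 2 and 3. For all tested genes these medians were close to that, at 0.10, 0.05 and 0.15. After subtraction of chromosome medians library by library, the log2 fold change was 1.48 for *CAD*, 0.96 for *RRM2* and 0.48 for *DTYMK*. With that subtraction the groups overlapped for *CTPS2* and for *RRM1*, which lies on chromosome 11.

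**Figure D2:**
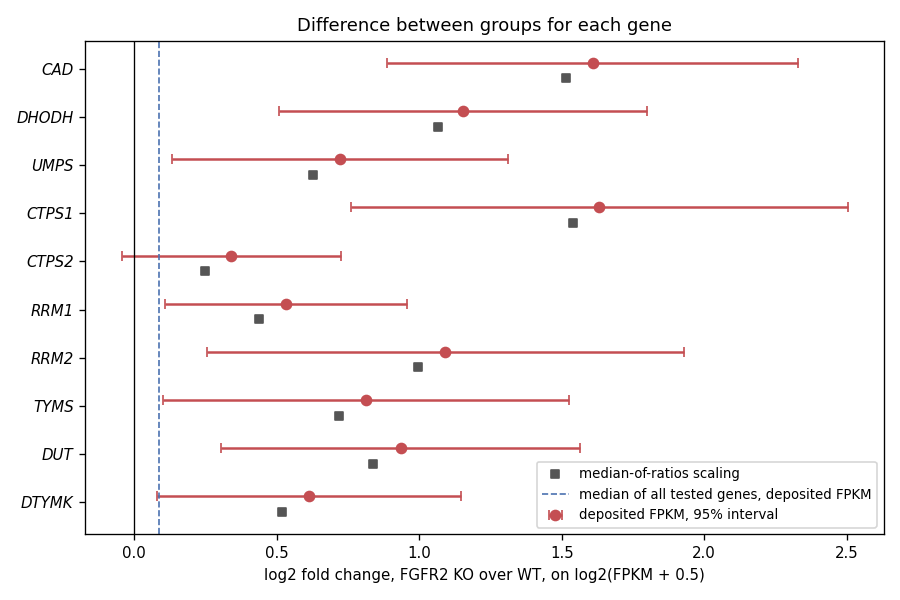
Log2 fold change of *FGFR2* KO over WT on log2(FPKM + 0.5) (x axis) for the 10 genes (y axis), from the deposited FPKM with the 95% interval of limma (red circles and bars) and after median-of-ratios scaling (grey squares), beside the median of all tested genes (dashed line, 0.09). *CTPS1* (1.63) and *CAD* (1.61) lie farthest right, and only the interval of *CTPS2* includes 0.

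The remaining enzymes of pyrimidine metabolism were examined as a list. For this and the lists below, the shares of all tested genes at the unadjusted threshold were 10.2% higher and 2.33% lower. For 18.3% of them all KO libraries lay above all WT libraries. Of 27 genes for salvage, nucleotide kinases and catabolism, 23 passed the filter, and 8 of these were higher and 0 lower at the unadjusted threshold, while 15 did not pass it. None was called at the adjusted threshold, and their median on the log2 scale was 0.37 (0.27 with median-of-ratios scaling, 0.16 with chromosome medians removed, 0.23 without KO replicate 3). Without KO replicate 3 only 3 of them were higher at the unadjusted threshold, and without WT replicate 1 it was 5. Without WT replicate 2, 1 of them was lower. *UCK2*, a uridine-cytidine kinase of the salvage route, had 10.98, 13.7 and 11.3 FPKM in WT against 19.7, 17.8 and 35.5 FPKM in KO lines. *NME1*, a nucleoside diphosphate kinase, had 60.1, 46.3 and 69.5 FPKM in WT against 113, 103 and 218 FPKM in KO lines. Both were higher in all KO libraries, with a log2 fold change of 0.93 for *UCK2* (standard error 0.26) and 1.23 for *NME1* (standard error 0.30), each with an adjusted p of 0.261 by limma. Also higher in all KO libraries were *DCTPP1*, which hydrolyzes dCTP analogs (0.93), *TK1*, the S phase thymidine kinase (0.65), *NME2* (0.64) and *NME4* (0.60), given as log2 fold changes, with adjusted p-values of 0.261 and, for *NME4*, 0.273 by limma. *NME1* and *NME2* are neighboring paralogs whose reads may not be fully separated.

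Enzymes around thymidylate and the electron donors of the reductase formed a further list. Of 12 such genes 11 passed the filter, 2 were higher at the unadjusted threshold and 0 lower, and the median log2 fold change was 0.24. The number higher was 0 without KO replicate 2 or without KO replicate 3, and 1 without WT replicate 1, without WT replicate 2 or with median-of-ratios scaling. Without WT replicate 1, 1 gene was also lower. The median was 0.15 without KO replicate 3 and with median-of-ratios scaling, 0.12 with quantile normalization and 0.07 with chromosome medians removed. One of them was *SAMHD1*, which degrades dNTPs, with 10.4, 11.7 and 7.08 FPKM in WT against 10.7, 26.8 and 25.3 FPKM in KO lines. Its groups overlapped, and it is named after its values were seen.

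De novo purine synthesis, the parallel route, showed a median close to that of the pyrimidine genes. Of its 13 genes 10 were higher and 0 lower at the unadjusted threshold, with a median log2 fold change of 0.87, and 0.78 with median-of-ratios scaling. Without KO replicate 3, 8 of them passed and the median was 0.59. *GART*, with 3 activities of the route in a single protein, had 39.9, 30.7 and 62.3 FPKM in WT against 86.6, 82.1 and 148 FPKM in KO lines. *PAICS* and *PPAT*, the enzyme of the committed step, had log2 fold changes of 1.25 (standard error 0.31) and 1.13 (standard error 0.31), and both adjusted p-values were 0.261 by limma. Also apart between the groups were *PFAS* (1.15), *PRPS1* (1.12), *ATIC* (1.12), *GMPS* (0.87), *ADSL* (0.80), *IMPDH1* (0.67) and *PRPS2* (0.65), given as log2 fold changes. No test of a difference between the purine and the pyrimidine genes was run.

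Of 19 regulators linked to these genes, which include activators, repressors and proteins that degrade RRM2, 5 were higher and 1 lower at the unadjusted threshold, and the median log2 fold change was 0.19. Only 2 were higher without KO replicate 3 and likewise without WT replicate 1. The median was 0.09 with median-of-ratios scaling, 0.09 with quantile normalization, 0.10 with chromosome medians removed and 0.11 with scaling to nuclear genes. *E2F1*, an activator of S phase genes, had 6.81, 4.06 and 6.83 FPKM in WT against 13.4, 10.8 and 22.4 FPKM in KO lines (log2 fold change 1.29, standard error 0.30, adjusted p = 0.261 by limma). *MYC* had 18.6, 29.3 and 25.2 FPKM in WT against 44.1, 29.3 and 57.7 FPKM in KO lines (log2 fold change 0.80, standard error 0.27, adjusted p = 0.261 by limma). For *MYC*, KO replicate 2 and WT replicate 2 were nearly equal, and the groups overlapped with median-of-ratios scaling. *MXI1*, which competes with MYC for MAX and represses its targets, went the other way, with 57.0, 68.0 and 43.0 FPKM in WT against 25.6, 25.5 and 19.4 FPKM in KO lines. Its log2 fold change was -1.22 (standard error 0.20, adjusted p = 0.261 by limma). *E2F3* (0.75), *E2F7*, a repressor of the family (0.79), and *TFDP1*, the dimer partner of E2F proteins (0.65), given as log2 fold changes, were also higher in all KO libraries, *TFDP1* not with median-of-ratios scaling.

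Markers of S phase and of G2 and mitosis, from the phase lists in common use and with the members left out, differed from each other in these libraries. Of 40 S phase markers 36 were higher and 0 lower at the unadjusted threshold, with a median log2 fold change of 0.94. With median-of-ratios scaling 33 of them passed, and without KO replicate 3 it was 24. Of 54 markers of G2 and mitosis 0 were higher and 0 lower, and their median was -0.01, a value whose sign changed with TPM scaling and with the library left out. Without WT replicate 2, 4 of them were lower. As the median log2 difference from the WT mean, the S phase markers were at 0.11, -0.47 and 0.37 in WT against 0.73, 0.71 and 1.44 in KO lines. The 10 members were at -0.07, -0.20 and 0.29 in WT against 0.80, 0.58 and 1.44 in KO lines. The markers of G2 and mitosis were at 0.12, -0.29 and 0.19 in WT against 0.03, 0.01 and 0.00 in KO lines. In bulk RNA, more cells in a phase and more RNA per cell cannot be told apart, and the part of S phase cells in the values of the members was not tested. The S phase and purine lists were chosen with earlier results of these data known and are no independent evidence of a direction. They are set beside the members as a description.

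**Figure D3:**
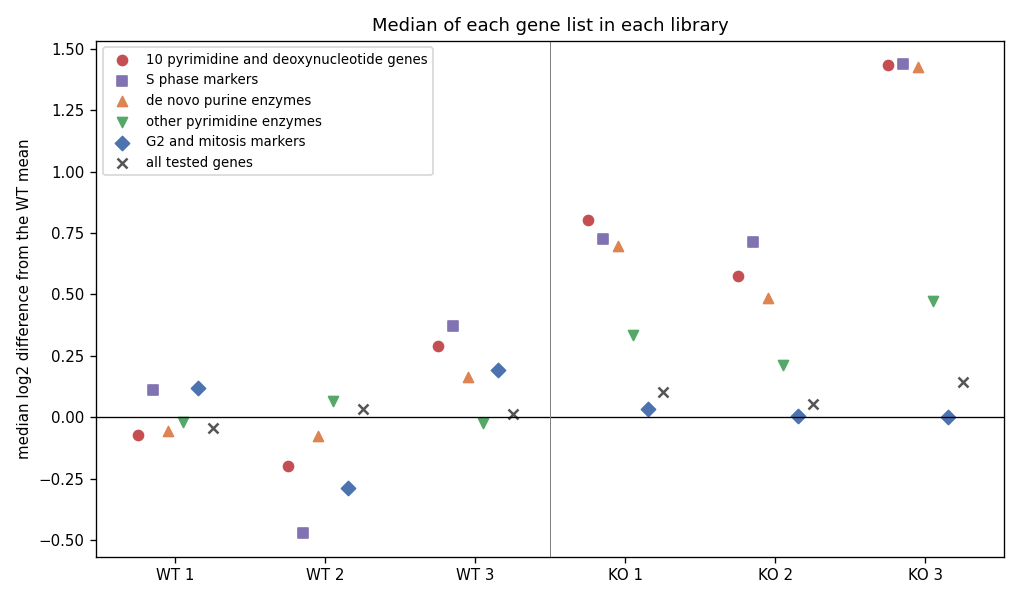
Median log2 difference from the WT mean (y axis) of the 10 pyrimidine and deoxynucleotide genes and of 4 other lists and all tested genes, in each WT and *FGFR2* KO library (x axis). In the KO libraries the 10 genes (0.80, 0.58 and 1.44) lie near the S phase markers and the purine enzymes, and the markers of G2 and mitosis lie near 0.

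The genes most like the members were sought by the root mean square difference, over the 6 libraries, between profiles of log2(FPKM + 0.5) centered on each gene's mean. Among 9316 other genes averaging 5 FPKM or more, those nearest to the mean profile of the members included *THOP1* (0.050), *WDR5* (0.057), *B4GALT2* (0.060) and *HNRNPAB* (0.067), in log2 units. The members themselves differed from their mean profile by 0.136 to 0.395. *THOP1* had 36.6, 31.8 and 50.2 FPKM in WT against 65.3, 59.1 and 96.0 FPKM in KO lines, and its libraries had the same order as those of *CAD*. Among all tested genes the nearest was *FOSL1* for *CAD* (0.092), *LYAR* for *DHODH* (0.065), *MRPS26* for *UMPS* (0.043), *MCM6* for *CTPS1* (0.108), *WDR24* for *CTPS2* (0.029), *THOC6* for *RRM1* (0.012), *PAQR4* for *RRM2* (0.076), *CENPM* for *TYMS* (0.071), *CTU2* for *DUT* (0.062) and *EIF3B* for *DTYMK* (0.035). No member was the nearest gene of another member. With 6 libraries, many genes come close to any profile, and these values describe likeness only.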

How the data were processed

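RNA-seq of 3 WT and 3 *FGFR2* KO HaCaT lines was analyzed, grouped by the sample labels. The authors trimmed reads with fastp 0.20.0 and pseudoaligned them with kallisto 0.46.1 to GRCh38 with GENCODE release 37. They deposited FPKM per gene and library, and how these were computed is not given in the sources used here. They tested their counts with DESeq2, which was not run here because FPKM are not counts. Of 21493 genes, 18 Y copies identical to their X copies were left out, and 21400 of 21475 got a symbol from GENCODE release 44. Depth was estimated from 3146 low values of genes with 1 transcript, of which 72.2% were whole fragments within 0.02, against 4% by chance, so that counts could not be recovered.

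Genes whose mean reached 0.5 FPKM were tested with limma 3.58.1 in R 4.3.3 (trend option) on log2(FPKM + 0.5), which understates changes of low genes. The fit was also run on simulated data in which genes varied independently of each other, and its outcome is not reported here. Because that simulation had no shifts shared by the genes of a library, it cannot show how the fit behaves with such shifts. Exact tests used scipy 1.17.1. Members and lists were chosen with earlier results of these data known. Named genes are the members, terms of the ratios, the nearest genes by profile, and genes of the related lists whose groups did not overlap and whose log2 fold change was 0.5 or more in either direction. Some genes that these rules or lists hold are not reported here. Alternatives were pseudocounts of 0.1 and 1, other filters, scalings and empirical Bayes steps, library weights, the replicate number as a block and leaving out each library.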

Additional observations from a re-analysis of the deposited data

How the results depend on the processing

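With limma, the count of called genes, 0, was the same under 18 of the 19 alternatives and was 1396 with library weights. The number of members past the unadjusted threshold (9) went from 4 to 9 with 1 library left out, with 4 without KO replicate 3 and 5 without WT replicate 1. The median log2 fold change of the members stayed between 0.59 and 1.07 with 1 library left out. The log2 difference of the *TYMS* to *DUT* ratio, -0.12, went from -0.27 to 0.12 with 1 library left out, and was 0.05 without WT replicate 1 and 0.12 without KO replicate 1. The median of the markers of G2 and mitosis was 0.028 with TPM scaling and went from -0.17 to 0.10 with 1 library left out (0.01 without KO replicate 2, 0.01 without KO replicate 3, 0.07 without WT replicate 1 and 0.10 without WT replicate 3). The cause of these changes was not tested. Same-numbered WT and KO libraries did not consistently deviate together. The correlation of deviations from the group means across genes was -0.21, 0.23 and 0.05 for numbers 1, 2 and 3. Not every library correlated best with its own number. Whether same-numbered libraries shared a batch is not in the labels and was not tested. With the replicate block, 0 genes were called, and 9 members were past the unadjusted threshold, against 10.9% of all genes in the higher direction. In this balanced design the block cannot change a difference between the groups. The member median of 0.87 and the *CTPS1* to *CTPS2* difference of 1.34 were therefore the same by construction. At the estimated depth all members lay far above the value of 1 fragment.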
